A study of Mus musculus with 4 samples.

Results

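Axon guidance ligands and receptors were followed in single-cell RNA sequencing of embryonic mouse heads. Every gene symbol that the count tables spell as a class 3 to 7 semaphorin, plexin, neuropilin, Eph receptor, ephrin, Slit, Robo, netrin, Unc5 receptor or Dcc was taken, by name alone. This gave 69 of the 20719 genes listed, and all 69 were listed in every library. They comprise 20 semaphorins, 9 plexins, 2 neuropilins, 9 EphA and 5 EphB receptors, 5 ephrin-A and 3 ephrin-B ligands, 3 Slits, 4 Robos, 4 netrins, 4 Unc5 receptors and Dcc, on 19 chromosomes. The libraries came from the head of mouse embryos at E10.5, which the submitters title embryonic brain, with 2 libraries labelled wild type (WT) and 2 labelled Apcdd1+/-, embryos with 1 altered copy of Apcdd1, a membrane inhibitor of Wnt signalling. The altered part of that gene, the strain and the number of embryos in a library are not stated in the labels, which record no other treatment. Nothing in the labels says that the libraries of a genotype came from separate litters, so the p-values below reflect the variation among these 4 libraries alone, some of which can be technical.

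Axon guidance molecules steer the growth cone of a young axon. Netrins attract through Dcc and repel through Unc5 receptors, and Slits repel through Robos. Most class 3 semaphorins act through neuropilins with plexins as the signalling partner. Ephrins, which stay on the cell surface, signal to Eph receptors on the cell they touch. At this stage most cells of the neural tube wall are dividing progenitors, the first neurons are sending out axons, and the floor plate, a strip of cells at the ventral midline, is the best known source of both netrin and Slit. Several family members also act outside the nervous system, above all in blood vessels and neural crest.

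Cells were sorted into gates by the number of marker genes detected, none of which is a member of these families. There were 8 broad gates, 9 regions of progenitors and, among neurons, 4 subtypes with enough cells. UMIs (unique molecular identifiers, 1 per captured RNA molecule) were summed per gate and library and are given as CPM, the gene's share of that sum scaled to 1000000 UMIs. The values of the 4 libraries are listed throughout in the order Apcdd1+/- replicates 1 and 2, then WT replicates 1 and 2. In a sum, fewer cells that carry a gene cannot be told apart from less RNA of it per cell. CPM are not scaled by gene length, so levels are compared between gates for 1 gene, never between genes.

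The deposited matrices held 3122 to 9735 cell barcodes and 55393605 to 96822641 UMIs per library, and 2956 to 9501 cells were kept. Median UMIs per barcode were 8949 and 8686 in the libraries labelled Apcdd1+/- and 11167 and 16260 in WT. A gate needs a set number of detected markers, so its cells depend on depth. Apcdd1 itself measured 77.4, 49.5, 63.4 and 60.8 CPM over all kept cells, so the groups overlap and the gene does not check the labels. In each of 20 gates, the summed markers of the gate were higher in its lowest library than in any library of another gate of the same kind, which the gating itself favours. Bead barcodes shared by a pair of libraries numbered 6 to 25, at most 0.382% of the smaller list. Haemoglobin, a measure of free RNA, stood at 405913 CPM or more in red blood cells and at no more than 107 CPM in the other broad gates, except 513 CPM in the 14 endothelial cells of WT replicate 2. Apcdd1+/- replicate 1 stood apart in the markers of small gates. Among hindbrain progenitors, Hoxb2 and Hoxb1 were at 0 CPM there, against 27.5 to 53.5 and 11.5 to 61.0 CPM in the other libraries. In the motor gate Tbx20 was at 18.5 CPM against 214 to 441. Results of the hindbrain, motor and sensory ganglion gates are therefore also given without that library where it moves them.

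Semaphorins, plexins, neuropilins, Robos and Dcc were mostly higher in neurons than in progenitors, while Eph receptors and ephrins were mostly not. Of 63 members tested, 34 were higher and 15 lower in neurons than in neural progenitors (edgeR's quasi-likelihood test, Benjamini-Hochberg adjusted p under 0.05). The background was high: of all 12912 genes tested, 34.6% were higher and 35.5% lower. The median difference was 0.49 on the log2 scale over the members and -0.01 over all genes. With DESeq2's size factors in edgeR (RLE scaling), the median of all genes moved by 0.14 and the members split into 37 higher and 12 lower. By family, the higher members were 14 of 20 semaphorins, 5 of 7 plexins, both neuropilins, all 3 tested Robos, 2 of 3 Slits, 2 of 3 tested Unc5 receptors and Dcc. Eph receptors and ephrins were more often lower than higher, with 3 Eph receptors higher and 6 lower, and 1 ephrin higher and 5 lower. The 6 members not tested because of low counts were Epha8, Ntn5, Plxnb3, Plxnd1, Robo4 and Unc5a.

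**Figure D1:**
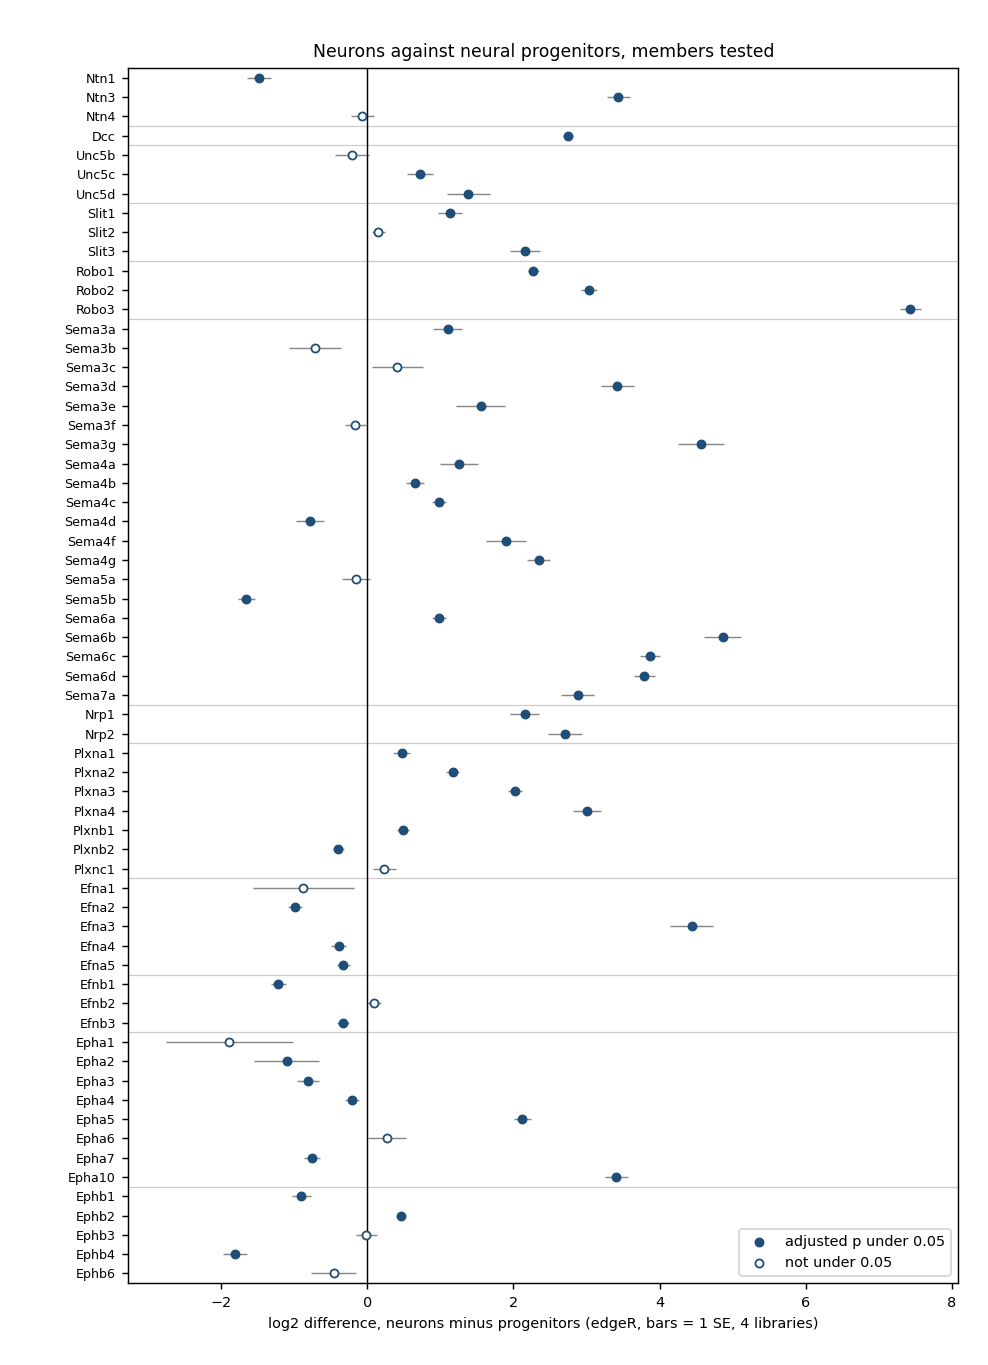
Log2 difference between neurons and neural progenitors for the 63 members tested, with bars of 1 SE and filled points for an adjusted p under 0.05. Robo3 lies farthest to the right, at 7.43, and Epha1, Ephb4 and Sema5b lie farthest to the left, at -1.89, -1.81 and -1.66.

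Among broad gates, 33 of the 69 members had 1 gate in which every library exceeded every library of every other gate, against 19.7% of all 20492 genes with any UMI in these gates. Neurons held 14 of them: Dcc, Robo2, Robo3, Slit1, Ntn3, Plxna3, Plxnb1, Sema4f, Sema4g, Sema6c, Epha5, Epha10, Ephb2 and Efna3. Endothelium held 8, which were Robo4, Plxnd1, Nrp1, Sema3g, Sema7a, Efna1, Epha2 and Ephb4. Epithelium held 6, which were Sema3a, Sema3c, Sema3d, Sema3e, Efna4 and Efna5. Progenitors held Ntn1, Sema5b, Epha3 and Ephb1, and mesenchyme held Epha7. Crest glia, macrophages and red blood cells held none. Genes of any level enter these shares, while 61 members and 12378 genes passed the count filter of the fit with all 8 gates. The shares given below for regions and subtypes are likewise unfiltered.

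**Figure D2:**
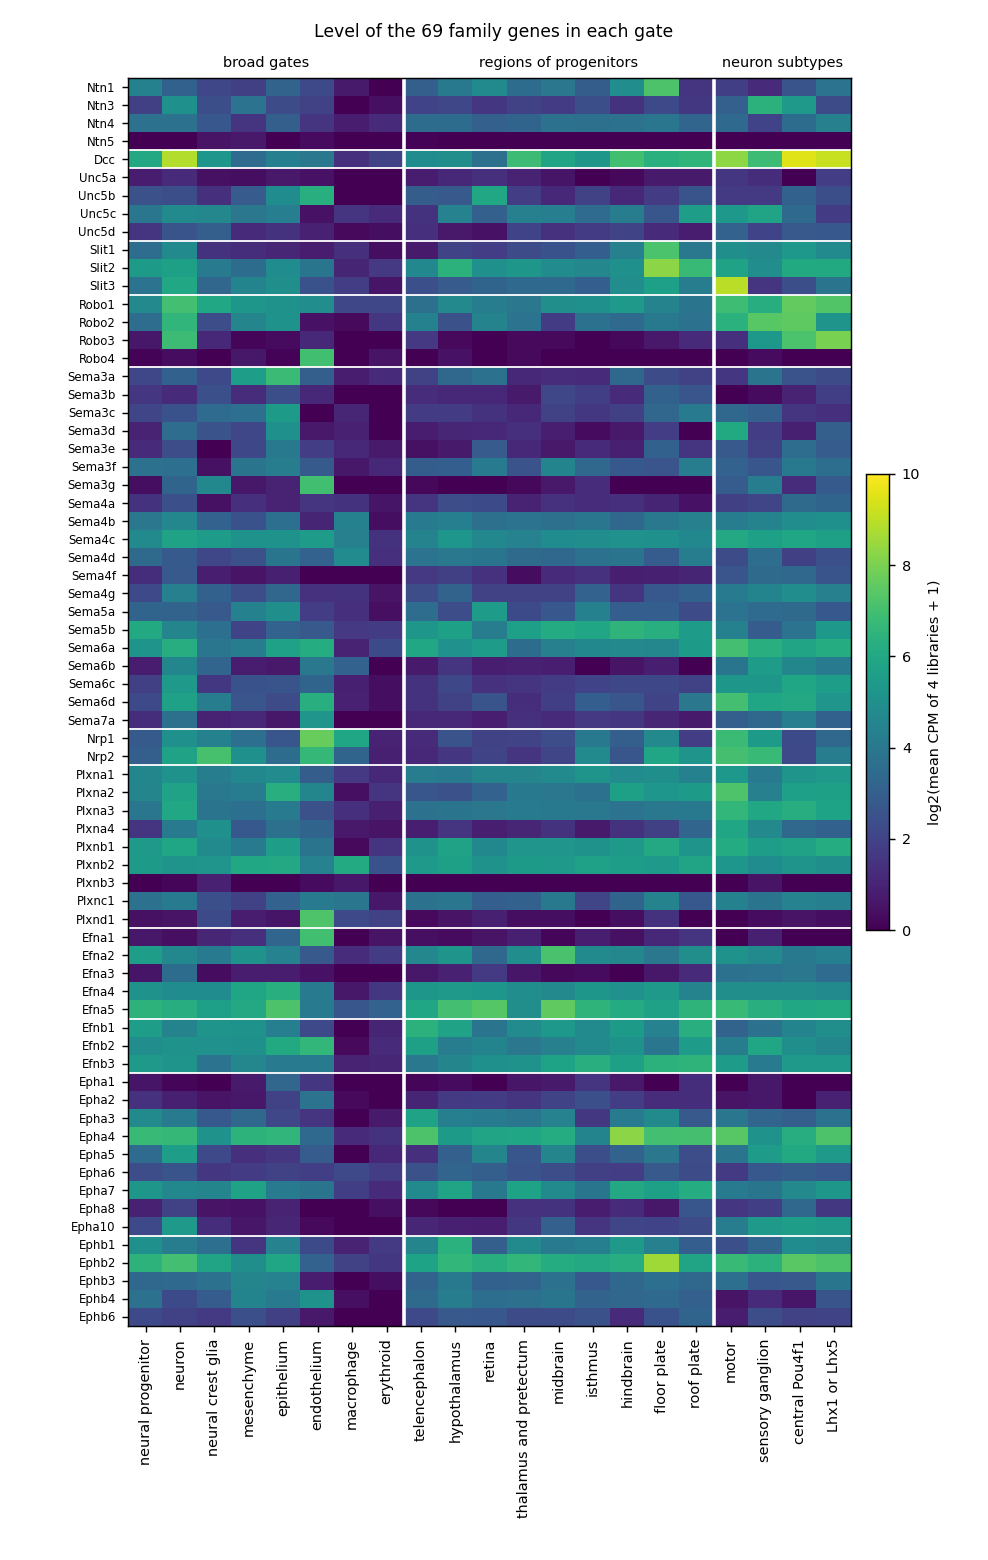
Heat map of the 69 members (rows, by family) in 8 broad gates, 9 progenitor regions and 4 neuron subtypes (columns), coloured by log2 of the mean CPM of the 4 libraries plus 1. Bright yellow-green is high and dark blue is low. Among broad gates Robo3 is bright in neurons alone, while Robo4, Plxnd1, Efna1 and Sema3g are brightest in endothelium.

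Robo3 and Robo4 show how far neighbouring members can part. Both encode receptors of the Slit receptor family, Robo3 known for letting commissural axons cross the midline and Robo4 for its place in blood vessels. Robo4 runs along chromosome 9 from 37401897 to 37415115, on the plus strand, and Robo3 on the minus strand from 37415669 to 37433246 (mm10, GENCODE vM21), so their 3′ ends face each other across 553 bases. Whether reads were counted by strand is not given in the sources used. The bases just before each gene are printed because they differ in their number of CpG. They are from RefSeq (GRCm38.p6), 5′ to 3′ on the strand of the gene, cut where the GENCODE gene begins, with each CpG in capitals, at chr9:37433247-37433425 on the minus strand for Robo3 and at chr9:37401722-37401896 on the plus strand for Robo4.
Robo3: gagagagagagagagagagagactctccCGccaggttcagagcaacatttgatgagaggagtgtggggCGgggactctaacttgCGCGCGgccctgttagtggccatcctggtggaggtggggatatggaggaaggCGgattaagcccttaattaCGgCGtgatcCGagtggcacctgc
Robo4: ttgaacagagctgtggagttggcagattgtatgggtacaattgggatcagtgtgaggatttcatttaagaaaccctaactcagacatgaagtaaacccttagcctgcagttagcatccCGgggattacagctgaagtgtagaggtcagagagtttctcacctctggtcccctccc
In the full 250 bases before each start, Robo3 had 12 CpG and Robo4 had 2. The search was for the letters CG, which read the same on both strands. Of the 69 members, 59 had a promoter in the table, with 75 starts and a median of 15 CpG, against a median of 6 over all 32851 promoters. At most 5 CpG were found in 18.7% of the members' promoters and in 49.6% of all promoters.

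Robo3 was measured at 72.2, 156, 107 and 118 CPM in neurons and at 0.569, 0.585, 0.564 and 0.576 in progenitors. The neuron value was far above every progenitor library, and the difference was 7.43 on the log2 scale (SE 0.14, adjusted p = 6.27e-28). Its UMIs were unevenly spread among neurons. Of 1695 UMIs in neurons, 42.5% fell in neurons marked by Lhx1 or Lhx5, 17.8% in central neurons marked by Pou4f1 without Isl1, 8.79% in sensory ganglion neurons and 0.0590%, a single UMI, in motor neurons. In motor neurons it was at 6.15, 0, 0 and 0 CPM. Lhx1 or Lhx5 neurons measured 150, 481, 163 and 218 CPM. The difference between motor neurons and the other subtypes passed the test (adjusted p = 8.91e-05), with no fold given because 1 UMI was all that was counted. Sensory neurons varied between libraries, at 22.7, 2.33, 97.2 and 35.5 CPM. Sensory neurons were compared with the central subtypes alone, which are the central Pou4f1 and the Lhx1 or Lhx5 neurons. Motor neurons, with too few cells in 1 library, were not in that reference. The sensory difference in Robo3 was -2.09 (adjusted p = 0.00284). It was 1.30 (adjusted p = 0.538) without Apcdd1+/- replicate 1, where motor neurons join the reference.

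Robo4 was at 109, 132, 129 and 132 CPM in endothelium, and 371 of its 439 UMIs in all kept cells came from there. A Robo4 UMI was found in 58.5%, 65.0%, 70.8% and 71.4% of endothelial cells and in 0.0193% to 0.139% of progenitors, at median depths of 11640 to 20128 and 9424 to 16051 UMIs per cell. Macrophages and crest glia had 0 UMIs and neurons had 4. Endothelium was higher, with an adjusted p of 3.5e-27 against the mean of the other broad gates, and no fold is given against gates at 0.

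Robo1 and Robo2, the general Slit receptors, were also higher in neurons. Robo1 stood at 117, 139, 111 and 145 CPM in neurons and 22.8, 25.8, 22.9 and 28.0 in progenitors, a log2 difference of 2.27 (SE 0.08, adjusted p = 9.12e-23). Robo2 rose more, from 9.89, 10.4, 9.38 and 14.1 CPM in progenitors to 76.8, 110, 86.0 and 109 in neurons (3.03, SE 0.11, adjusted p = 1.78e-22). Neither pair of ranges overlapped. Among subtypes the genes differed. Sensory ganglion neurons had Robo2 at 179, 161, 114 and 212 CPM, above the central subtypes by 1.14 (SE 0.21, adjusted p = 0.00111). Lhx1 or Lhx5 neurons had 42.1, 50.2, 26.9 and 21.7 CPM. Robo1 was lower in sensory neurons, at -1.15 on the log2 scale, at 65.9, 75.7, 49.6 and 107 CPM against 140 to 167 in Lhx1 or Lhx5 neurons. Midbrain progenitors had the lowest mean of Robo2 among regions, 2.40 ± 0.361 CPM (SD, n = 4), and telencephalic progenitors measured 17.96, 19.8, 21.1 and 22.4. Endothelium had 2 UMIs of Robo2 in all, and its call as lower than the other gates was lost without Apcdd1+/- replicate 2 (adjusted p = 1.00).

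Slit1 and Slit2, 2 of the 3 Robo ligands, were highest in the floor plate. The floor plate contrast called 14 of 47 tested members higher and 5 lower, where 11.0% and 10.3% of all 10422 genes were called. Each region was compared with the average of the log levels of the other 6 regions with at least 20 cells in every library. In that average 1 very high region weighs little, while 1 region near 0 weighs heavily and enlarges the difference of a high region. Slit1 measured 98.9, 135, 175 and 157 CPM in the floor plate. In telencephalic progenitors only 13 UMIs were found, at 1.60, 0.558, 0.469 and 0 CPM. The floor plate was higher than the other regions by 4.68 (SE 0.19, adjusted p = 2.26e-30) and the telencephalon lower, at -3.71 (SE 0.38, adjusted p = 1.59e-12). Slit2 in the floor plate stood at 308, 211, 335 and 363 CPM. The floor plate exceeded the other regions by 2.72 (SE 0.10, adjusted p = 1.63e-32) and no library of another region reached its lowest library. Roof plate came next in the mean, at 80.8, 117, 84.4 and 137 CPM (difference 0.92), and hypothalamus at 74.6, 58.1, 79.2 and 124 CPM, neighbours whose libraries overlap. Slit3 was at 53.8, 71.9, 36.05 and 33.6 CPM in the floor plate and 23.1, 30.0, 24.8 and 37.2 in the hindbrain, which overlap.

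Of the 6 regions tested, hindbrain progenitors were the other one with Slit1 higher. It measured 2.88, 22.1, 30.8 and 21.5 CPM there, so Apcdd1+/- replicate 1, the library with Hoxb2 at 0, lay far below the rest. The difference was 1.64 (SE 0.25, adjusted p = 6.3e-07) and 1.93 without that library. Hindbrain had 12 members higher and 4 lower of 47, where 6.21% and 4.53% of all genes were called. Without Apcdd1+/- replicate 1 the number called was again 16.

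Slits were also measured in neurons. Slit1 was higher in neurons, at 26.3, 22.5, 25.6 and 27.6 CPM, than in progenitors, at 8.58, 12.6, 13.2 and 9.62 (1.13, SE 0.16, adjusted p = 2.55e-07). Slit2 was not called, at 49.3, 47.4, 44.1 and 61.6 CPM against 39.7, 40.2, 40.8 and 50.9 (0.15, SE 0.09, adjusted p = 0.143). Slit3 marked 1 kind of neuron. Motor neurons had 185, 797, 426 and 572 CPM, and no library of another subtype was above 20.8. The log2 difference from the other subtypes was 6.53 (SE 0.22, adjusted p = 2.5e-16). In all neurons Slit3 was 13.2, 89.5, 62.6 and 83.5 CPM. In Apcdd1+/- replicate 1, the low library, 18 of 347 neurons were motor, against 38 of 327, 40 of 376 and 21 of 213 in the others, and the part of these numbers in the level was not tested.

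Ntn1, which encodes the secreted attractant netrin 1, was a gene of progenitors and, within them, of the floor plate. It lies on chromosome 11 from 68209364 to 68400823 on the minus strand. Progenitors measured 24.1, 16.7, 18.5 and 21.7 CPM, and neurons 8.26, 5.71, 8.16 and 8.32, a difference of -1.48 (SE 0.16, adjusted p = 1.83e-09). Floor plate cells had 183, 114, 157 and 139 CPM, a mean of 148 ± 29.2 (SD, n = 4), above the other regions by 3.81 (SE 0.16, adjusted p = 1.24e-30). Hindbrain followed at 26.0, 27.5, 31.4 and 30.0 CPM. Roof plate had 4.95, 0, 0 and 2.50 CPM from 4 UMIs in all, and its difference from the other regions was -3.46 (SE 0.51, adjusted p = 2.56e-07). The ventral and dorsal midlines thus had the highest and the lowest mean of Ntn1, with the other 7 regions between them. In telencephalic progenitors Ntn1 was lower than in the other regions, at -1.11, a call lost without Apcdd1+/- replicate 1 (-0.99, adjusted p = 0.11).

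Ntn3, another netrin, had its highest mean in sensory ganglion neurons, at 65.9, 108, 87.1 and 78.8 CPM. Central Pou4f1 neurons followed at 52.5, 25.4, 38.2 and 44.6 CPM, with no overlap, while motor and Lhx1 or Lhx5 neurons averaged 7.27 and 4.04. Sensory neurons exceeded the central subtypes by 2.83 (SE 0.27, adjusted p = 4.75e-07). Without Apcdd1+/- replicate 1, where motor neurons join the reference, the difference was 3.24. Over all neurons it was higher than in progenitors by 3.44. Mesenchyme too was higher than progenitors, by 2.36, at 11.2, 13.5, 12.1 and 15.6 CPM.

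Dcc, the attractive netrin receptor, rose sharply from progenitors to neurons. Neurons measured 396, 485, 441 and 506 CPM and progenitors 52.0, 73.0, 64.7 and 67.4, a difference of 2.75 (SE 0.07, adjusted p = 2.9e-26). Central Pou4f1 neurons had 632, 651, 751 and 909 CPM and Lhx1 or Lhx5 neurons 376, 665, 549 and 681, neighbours that overlap. Motor neurons stood at 320, 386, 257 and 301. Sensory ganglion neurons were lowest, at 145, 55.9, 159 and 104 CPM, and differed from the central subtypes by -2.44 (SE 0.21, adjusted p = 1.37e-07). Without Apcdd1+/- replicate 1, where motor neurons join the reference, the difference was -2.23. The motor difference of -0.25 was not called (adjusted p = 0.625). Among progenitors, hindbrain (138, 153, 74.9 and 134 CPM) and thalamus with pretectum (101, 125, 116 and 123) overlapped at the upper end. Retina, telencephalon and hypothalamus, at means of 11.9, 28.5 and 29.5, made up the lower end. Dcc in the floor plate itself was not called (0.24, adjusted p = 0.352).

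The repulsive netrin receptors Unc5c and Unc5b marked other places. Roof plate progenitors had Unc5c at 52.8, 33.1, 37.7 and 67.4 CPM, a difference of 2.19 from the other regions (SE 0.26, adjusted p = 1.21e-09). Floor plate progenitors had 2.15, 9.28, 7.72 and 2.24, a difference of -1.62 (adjusted p = 0.00472) that was lost without Apcdd1+/- replicate 1 (-1.24, adjusted p = 0.088). The roof plate thus had the highest mean of Unc5c and the lowest of Ntn1. Telencephalic progenitors had 30 UMIs of it, at 2.49, 3.07, 0.704 and 0.722 CPM (-3.15, SE 0.31, adjusted p = 7.58e-13). Among neurons, sensory ganglion neurons had 25.0, 65.2, 40.5 and 93.6 CPM and motor neurons 36.9, 52.6, 44.5 and 24.6, which overlap. Lhx1 or Lhx5 neurons had 8 UMIs in all. Sensory neurons exceeded the central subtypes, without motor neurons in the reference, by 3.50 (SE 0.37, adjusted p = 2.15e-06). Motor neurons exceeded the other subtypes by 1.79 (adjusted p = 0.00971). That call was lost without WT replicate 1 (1.38, adjusted p = 0.20) or Apcdd1+/- replicate 2 (1.56, adjusted p = 0.12). The difference between all neurons and progenitors, 0.72, rested on WT replicate 2 (0.37 without it, adjusted p = 0.065). Unc5b was at 45.6, 88.1, 45.1 and 66.3 CPM in the retina gate, which had fewer than 20 cells in 1 library and was not tested, and at no more than 11.5 CPM in any library of another region.

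**Figure D3:**
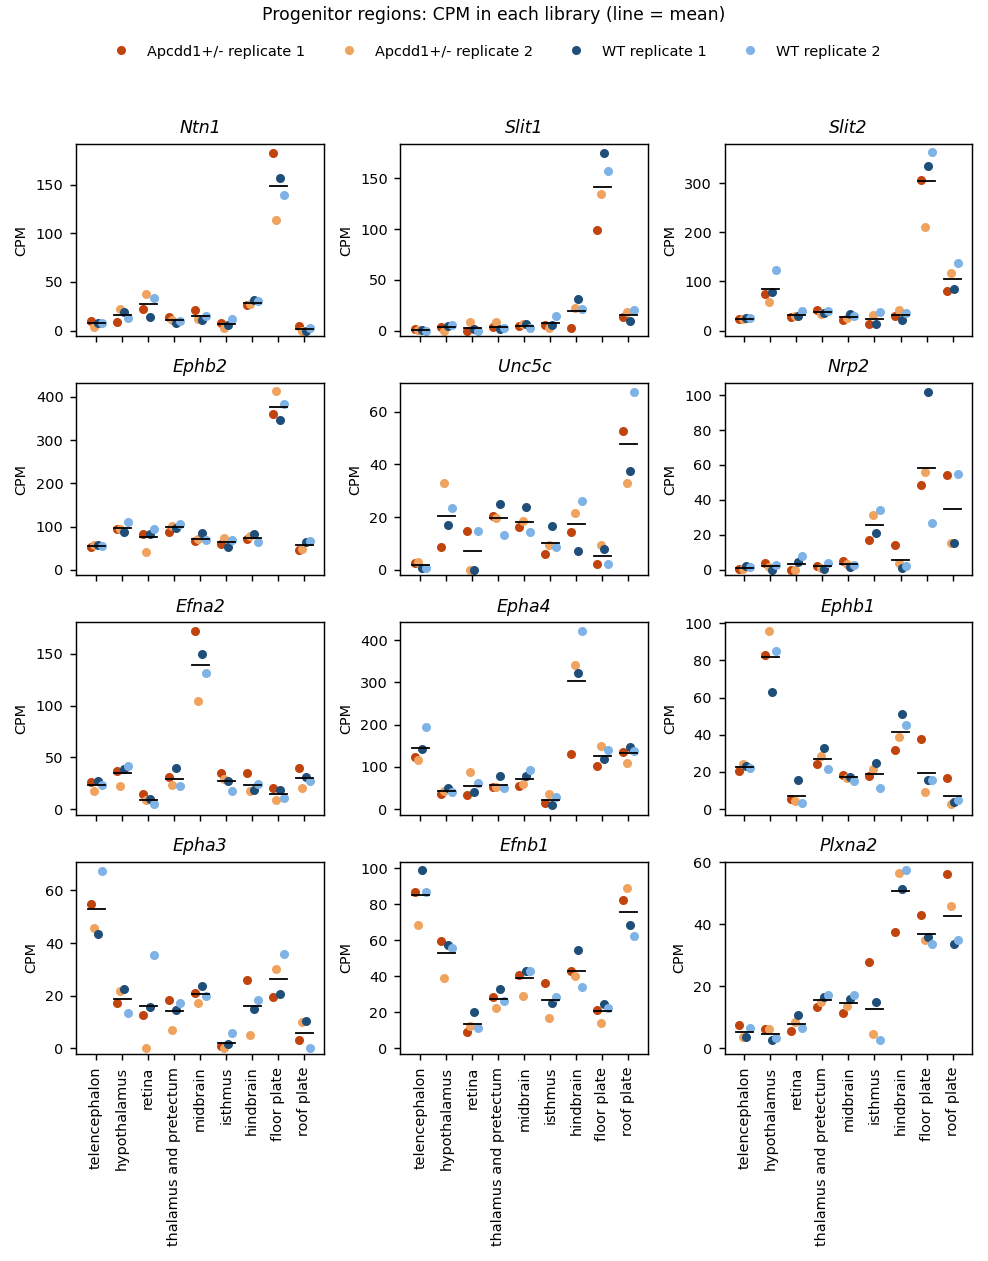
CPM of 12 members in 9 progenitor regions, with 1 point per library and a line at the mean. Ntn1, Slit1, Slit2 and Ephb2 peak in the floor plate, Unc5c in the roof plate, Efna2 in the midbrain, Ephb1 in the hypothalamus and Epha3 in the telencephalon.

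Over the regions, 9 of 69 members had a region in which every library exceeded every library of every other region, against 2.43% of all 18949 genes with a UMI there. They were Ntn1, Slit1, Slit2 and Ephb2 in the floor plate, Unc5c in the roof plate, Ephb1 in the hypothalamus, Efna2 in the midbrain, Unc5b in the retina and Epha3 in the telencephalon. Low counts kept 22 members out of the regional tests, among them Robo3, Robo4, Plxnd1, Sema3d, Sema3e, Sema3g, Ntn3 and Unc5d.

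Nrp1 and Nrp2, co-receptors for class 3 semaphorins and for vascular endothelial growth factor, had their highest means among broad gates in endothelium and neural crest glia. Nrp1 in endothelium was at 172, 136, 264 and 232 CPM, followed by macrophages at 52.0, 58.7, 59.6 and 61.6 with no overlap. The endothelial difference was 4.19 (SE 0.18, adjusted p = 1.38e-24). Nrp2 was at 161, 136, 97.2 and 141 CPM in neural crest glia and at 135, 85.9, 129 and 46.3 in endothelium, which overlap, and each exceeded the other broad gates by 2.90 (adjusted p = 3.26e-10 for crest glia). Mesenchyme followed at 26.6, 29.9, 26.6 and 42.8 CPM, above progenitors by 2.19.

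Neurons exceeded progenitors in both neuropilins, but not in every library to the same degree. Nrp2 was at 8.57, 77.2, 53.1 and 72.5 CPM in neurons and 7.11, 5.30, 8.49 and 7.69 in progenitors, and Apcdd1+/- replicate 1 barely differed from the progenitors. The fitted difference was 2.71 (SE 0.23, adjusted p = 3.05e-12) and 3.19 without that library. Nrp1 differed by 2.16 (SE 0.20, adjusted p = 1.56e-11), from 10.4, 36.9, 26.5 and 52.5 CPM in neurons. Neuropilins were high in sensory and motor neurons. Sensory ganglion neurons had Nrp2 at 4.54, 177, 83.0 and 165 CPM and motor neurons at 24.6, 172, 174 and 161, a mean of 133 against 134 in crest glia. Central Pou4f1 neurons stood at 0, 8.47, 6.03 and 0. The sensory difference from the central subtypes was 3.66 (SE 0.42, adjusted p = 4.91e-06). Without Apcdd1+/- replicate 1, where motor neurons join the reference, it was 2.52. For Nrp1 in sensory neurons, 9.09, 58.2, 32.4 and 70.2 CPM, it was 2.77, and 1.59 without that library, again with motor neurons in the reference. Motor neurons exceeded the other subtypes by 3.16 in Nrp1, at 36.9, 167, 101 and 148 CPM, and by 2.71 in Nrp2. Among progenitor regions, Nrp2 was higher at both midlines, by 4.02 in the floor plate (48.4, 55.7, 102 and 26.9 CPM; adjusted p = 9.51e-18) and by 3.11 in the roof plate (54.4, 15.3, 15.6 and 54.95 CPM; adjusted p = 7.38e-10). In the roof plate a Nrp2 UMI was found in only 18.2%, 15.6%, 13.0% and 15.0% of cells, so each of these sums rested on few cells. The floor plate value was 2.40 with 1 more marker required per gate. Telencephalic progenitors averaged 1.14 CPM.

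Class 3 semaphorins are secreted, and most are ligands of neuropilins. Sema3a, Sema3c, Sema3d and Sema3e were each higher in every epithelial library than in any library of another broad gate. Sema3a measured 116, 109, 107 and 115 CPM in epithelium, 45.1, 42.7, 37.6 and 60.4 in mesenchyme and 2.86, 3.995, 3.18 and 3.66 in progenitors, with no overlap between the 3. Mesenchyme exceeded progenitors by 3.87 (SE 0.11, adjusted p = 3.66e-25). Epithelium exceeded the mean of the other tested broad gates, red blood cells among them, by 3.88 (SE 0.12, adjusted p = 6.35e-24). Sema3c was at 42.5, 44.0, 35.7 and 47.0 CPM in epithelium and had 0 UMIs in endothelium. Sema3d and Sema3e were in epithelium at 29.0, 29.9, 25.2 and 40.3 CPM and at 13.7, 13.1, 16.6 and 18.6. Within neurons, every motor neuron library exceeded these Sema3d levels, at 43.1 CPM or more. Sema3f did not follow: progenitors averaged 12.4, neurons 11.7 and mesenchyme 13.3 CPM, and the difference between neurons and progenitors was not called (-0.16, adjusted p = 0.305). Midbrain progenitors had more Sema3f than the other regions, by 1.56, at a mean of 22.1 CPM. Sema3g was at 105, 66.1, 154 and 172 CPM in endothelium and 18.4, 23.5, 29.5 and 26.3 in crest glia, with 0.296 CPM on average in progenitors and 0 UMIs in macrophages (endothelium, adjusted p = 3.1e-26).

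In the outer tissues as a whole the members moved both ways. Mesenchyme had 23 members higher and 26 lower than progenitors of 63 tested, where 28.2% and 27.7% of all genes were called. Epithelium had 33 higher and 5 lower of 63, where 30.6% and 17.3% of all genes were called. Red blood cells were part of its reference, and red blood cells and macrophages part of those of endothelium and crest glia below. Many members had few or no UMIs in these gates, and the part of that in the calls was not tested. Endothelium, with 14 cells in 1 library and so fitted with a minimum of 10 cells per gate, had 18 higher and 9 lower of 61, where 23.9% and 13.4% were called. Crest glia, on the same minimum, had 17 higher and 3 lower of 61, where 14.1% and 5.78% were called. The crest glia gate also carried other classes' markers: progenitor markers summed to 1156 to 1799 CPM and neuron markers to 571 to 1040 CPM, against 567 to 764 CPM of its own, and their part in these calls was not tested. Neuron markers summed to 181 to 216 CPM in progenitors. Plxna4 was in crest glia at 78.3, 18.1, 14.7 and 14.7 CPM, a difference of 2.49 that became 4.24 without Apcdd1+/- replicate 2. That library held all 3 Plxna4 UMIs of macrophages and the only 1 of red blood cells, both in the reference. Without it these gates stand at 0, so 4.24 does not measure a change in crest glia.

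The membrane-bound semaphorins of classes 5 and 6 split between progenitors and neurons. Sema5b, a transmembrane semaphorin, was at 53.0, 70.7, 73.5 and 70.1 CPM in progenitors, 19.6, 16.5, 20.7 and 32.8 in neurons and 2.94, 3.63, 3.51 and 2.33 in mesenchyme. The differences from progenitors were -1.66 in neurons (SE 0.12, adjusted p = 1.59e-14) and -4.26 in mesenchyme (SE 0.13, adjusted p = 2.2e-24). Sema6b, Sema6c and Sema6d went the other way. Sema6c was at 38.2, 43.8, 42.1 and 41.1 CPM in neurons and 2.20, 2.62, 2.69 and 3.21 in progenitors (3.87, SE 0.14, adjusted p = 2.75e-22). Sema6d differed by 3.79 and Sema6b by 4.86. Sema6d was also at 81.6, 43.0, 61.8 and 119 CPM in endothelium, where it overlapped the neuron values of 50.8, 46.8, 49.8 and 58.0.

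Plexins, the signalling receptors for semaphorins, included 1 vascular and several neuronal members. Plxnd1 in endothelium was at 153, 122, 168 and 152 CPM, and the mean of every other broad gate was at most 3.69. The difference was 6.91 (SE 0.21, adjusted p = 1.02e-30). Plxna3 and Plxna4 were higher in neurons than in progenitors by 2.02 and 3.00. Plxna2, with means of 53.2 CPM in neurons and 22.3 in progenitors (difference 1.17), had its highest mean among broad gates in epithelium, at 61.5, 84.4, 76.8 and 85.1, which overlap the neurons. In progenitors Plxna2 differed by region. Hindbrain had 37.5, 56.5, 51.3 and 57.4 CPM, above the other regions by 1.89 (SE 0.15, adjusted p = 3.37e-16). Roof plate was above by 1.51, telencephalon was below at -1.88, and so was hypothalamus at -2.28, a call that was lost with 1 more marker per gate (-1.09, adjusted p = 0.15).

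Motor neurons stood out in several members at once. Of 45 tested, 11 were higher than in the other subtypes and 3 lower, where 2.28% and 1.68% of all 8685 genes were called. The motor gate held 18 to 40 cells per library, so this fit also used the minimum of 10 cells, and 15 members were called without Apcdd1+/- replicate 1, but 9 without Apcdd1+/- replicate 2. Besides Slit3 and the neuropilins, Sema3d was at 43.1, 78.9, 73.5 and 71.2 CPM in motor neurons and at no more than 10.8 in any library of the other subtypes (4.46, SE 0.38, adjusted p = 2.26e-08). Plxna2 was at 123, 196, 125 and 167 CPM against 12.8 to 71.3 in the others (2.04, SE 0.19, adjusted p = 9.1e-08). Plxna4, at 98.4, 40.9, 46.2 and 43.8 CPM, was higher by 2.11. The 3 lower were Robo3, Epha5 and Ephb1. Epha5 differed by -1.79, lost without WT replicate 1 (-1.71, adjusted p = 0.072), and Ephb1 by -2.16, lost without WT replicate 1, WT replicate 2 or Apcdd1+/- replicate 2 (-1.80 to -2.70).

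Sensory ganglion neurons were gated by Pou4f1 with other sensory markers. Against the central subtypes they had 9 members higher and 13 lower of 44, where 5.98% and 3.93% of all 9103 genes were called. The higher ones included Nrp1, Nrp2, Unc5c, Ntn3 and Robo2, and the lower ones Dcc, Robo1, Ephb2, Epha4 and Plxna2. Their differences included -0.86 for Ephb2 and -1.50 for Epha4. In this gate Apcdd1+/- replicate 1 had 35 cells and far lower neuropilin values than the other libraries. Without it, and with motor neurons then in the reference, 20 members were called, and without WT replicate 2 there were 13.

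**Figure D4:**
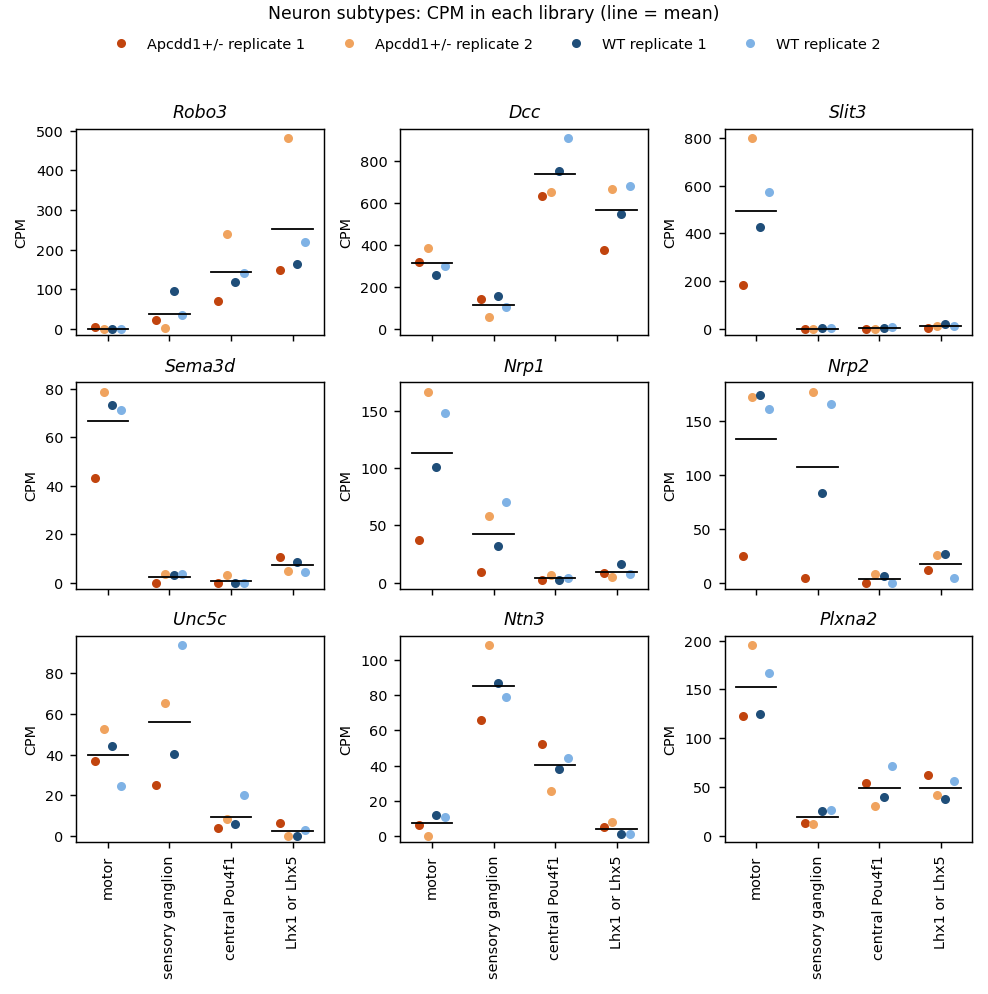
CPM of 9 members in 4 neuron subtypes, with 1 point per library and a line at the mean. Slit3, Sema3d and Plxna2 peak in motor neurons, Ntn3 in sensory ganglion neurons, and Robo3 and Dcc in the central subtypes.

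Of all 69 members, 9 had a subtype in which every library exceeded every library of the other 3, against 1.81% of 16627 genes with a UMI in a subtype. Motor neurons held Slit3, Sema3d, Sema6a, Plxna2 and Plxna4, and Lhx1 or Lhx5 neurons held Epha7 and Ephb4. Sensory neurons held Ntn3 and central Pou4f1 neurons held Epha8. Of these, Ephb4 and Epha8 had counts too low for the motor and the sensory tests.

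Ephrin-A ligands, which are anchored to the membrane by a lipid, include 3 neighbouring genes with their highest means in 3 different gates. Efna1 (89271733 to 89281142), Efna3 (89313899 to 89322965) and Efna4 (89333390 to 89338028) follow each other on the minus strand of chromosome 3, with gaps of 32756 and 10424 bases. Efna1 was at 106, 95.9, 137 and 162 CPM in endothelium, 8.60 on average in epithelium and at most 1.58 in the mean of any other broad gate (adjusted p = 1.05e-28). Efna3 was at 8.57, 12.3, 11.7 and 9.88 CPM in neurons and averaged at most 0.747 elsewhere, a difference of 4.44 between neurons and progenitors (SE 0.30, adjusted p = 2.5e-14). Efna4 was broad, with a highest mean of 75.7 ± 7.14 CPM (SD, n = 4) in epithelium, then 59.7 in mesenchyme and 34.1 in progenitors. From the lowest coordinate upwards, the highest mean was thus in endothelium, then neurons, then epithelium. In all, 5 pairs of members lay within 100000 bases of each other on a chromosome.

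The dorsal midbrain forms the tectum that retinal axons map onto, but the midbrain gate does not separate dorsal from ventral cells. Midbrain progenitors were higher in Efna2 and Efna5 than the other regions. Efna4 was lower there, at -0.37, and Efna1 and Efna3 had too few counts for a regional test. Efna2 was at 172, 105, 150 and 131 CPM there, and at no more than 41.2 in any library of another region (2.49, SE 0.08, adjusted p = 2.62e-36). Efna5 was at 178, 165, 196 and 201 CPM. The retina gate, at 144, 248, 128 and 131, overlapped it. Hypothalamus followed at 104, 151, 136 and 121 CPM, and thalamus with pretectum was lowest with a mean of 29.3. The midbrain difference in Efna5 was 1.58 (SE 0.08, adjusted p = 5.74e-26). The receptor Epha5 was higher in midbrain too, at 14.2, 23.8, 24.6 and 27.2 CPM (1.97, SE 0.19, adjusted p = 2.23e-13), while the retina gate, not tested, averaged 22.7. It was lowest in the mean in telencephalon, at 1.24, 1.95, 1.41 and 1.44 (-2.43). Midbrain had 9 members higher and 11 lower of 47, where 4.77% and 3.45% of all genes were called. Without Apcdd1+/- replicate 1, 13 were called.

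EphA receptors divided the other regions. Epha3 was at 54.8, 45.8, 43.4 and 67.5 CPM in telencephalon, and no library of another region was above 35.8 (1.86, SE 0.14, adjusted p = 2.37e-18). Epha4 was at 130, 341, 322 and 422 CPM in hindbrain, where it is known from alternating segments, and the low value again came from Apcdd1+/- replicate 1. Its difference was 1.88 (SE 0.08, adjusted p = 2.7e-28), and 1.98 without that library. Hypothalamus was lower in Epha4, at 35.7, 43.9, 50.4 and 41.2 CPM (-1.55, SE 0.14, adjusted p = 3.54e-14). Epha7, at 14.4, 88.0, 52.6 and 104 CPM in hindbrain, was called at 0.75 by edgeR and not by DESeq2 (adjusted p = 0.15). In neurons, Epha5 (41.9, 53.8, 49.6 and 46.0 CPM) and Epha10 (42.5, 41.4, 40.6 and 37.7) exceeded progenitors by 2.12 and 3.41. Epha3 and Epha7 were lower there, at -0.81 and -0.75. Epha4 differed by -0.21 (adjusted p = 0.0478) and was not called under RLE scaling (-0.07) or DESeq2.

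Ephb2, a receptor for ephrin-B ligands, was the EphB gene of the floor plate. It was at 361, 413, 348 and 383 CPM there, a mean of 376 ± 28.6 (SD, n = 4), while no library of another region was above 110. The difference was 2.25 (SE 0.07, adjusted p = 1.81e-35). Neurons had 122, 130, 124 and 137 CPM and progenitors 82.7, 86.9, 87.8 and 93.9 (0.46, SE 0.06, adjusted p = 4.36e-08). Ephb1 marked the hypothalamus, at 83.1, 95.7, 63.0 and 85.0 CPM, above all other libraries (1.95, SE 0.15, adjusted p = 1.48e-17). In mesenchyme Ephb1 averaged 1.81 CPM, lower than in progenitors, at -3.97. The hypothalamus had 8 members higher and 7 lower of 47, where 6.59% and 5.85% of all genes were called. Requiring 1 more marker left 8 called in all, and leaving out WT replicate 2 left 9. Ephb4, known from veins, was at 35.5, 26.4, 26.2 and 46.3 CPM in endothelium and lower in neurons than in progenitors, at -1.81 (SE 0.17, adjusted p = 6.01e-11).

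Ephrin-B ligands, which span the membrane, were arranged by region. Efnb3 was high at both midlines, at 92.4, 99.2, 87.0 and 82.4 CPM in roof plate and 74.2, 88.2, 92.7 and 87.4 in floor plate, which overlap. It was lowest in telencephalon, at 13.3, 14.2, 16.7 and 15.2. The differences were 1.27 in roof plate (adjusted p = 1.73e-10), 1.08 in floor plate and -1.70 in telencephalon (SE 0.12, adjusted p = 1.61e-18). Efnb1 and Efnb2 were higher in telencephalon and lower in floor plate. Efnb1 was at 86.8, 68.7, 99.2 and 87.0 CPM in telencephalon, 82.5, 89.1, 68.8 and 62.4 in roof plate and 21.5, 13.9, 24.5 and 22.4 in floor plate. Its differences were 1.16, 0.86 and -1.37. Efnb2 was at 47.8, 43.5, 55.1 and 53.4 CPM in telencephalon and was at 17.2, 9.28, 11.6 and 17.9 in floor plate, with differences of 1.26 and -1.003. Outside the neural tube, Efnb2, known from arteries, was at 75.9, 56.2, 117 and 136 CPM in endothelium (3.01). The roof plate called 15 members higher, all 3 ephrin-Bs among them, and 6 lower of 47, where 6.69% and 3.91% of all genes were called.

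Telencephalic progenitors were the region with more members lower than higher by the widest margin of the 6 tested. There, 9 were higher and 21 lower of 47, where 13.1% and 11.7% of all genes were called. All 3 Slits and both neuropilins were among the lower ones, together with Ntn1, Dcc, Unc5c, Plxna2, Epha5 and Efnb3. Epha3, Efnb1, Efnb2, Robo2 and Unc5b were among the higher ones. Dcc differed by -1.33, and by -0.51 (adjusted p = 0.07) with 1 more marker per gate.

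Other genes of these pathways were followed as a list of 48 co-receptors, extracellular partners and signalling proteins, chosen with earlier results of these data known. In neurons 31 of 47 tested were higher and 7 lower than in progenitors, where 34.6% and 35.5% of all genes were called, led by Cntn2 at 6.71, L1cam at 5.50 and Rgmb at 3.71 on the log2 scale. In mesenchyme 14 were higher and 23 lower of 47, against 28.2% and 27.7% of all genes. The floor plate had 10 higher and 4 lower of 41, against 11.0% and 10.3%, with Chn2 at 2.76 and the adhesion molecule Nrcam at 2.58. Roof plate had 4 each way, against 6.69% and 3.91%, with Nrcam at -3.35 and Draxin, a secreted netrin partner, at 1.99. Telencephalon had 2 higher and 15 lower, against 13.1% and 11.7% of all genes. Midbrain had 7 and 5, against 4.77% and 3.45%, and hypothalamus 9 and 6, against 6.59% and 5.85%. Hindbrain had 9 and 5, against 6.21% and 4.53%. Motor neurons had 1 each way of 39, against 2.28% and 1.68%. Sensory neurons had 4 higher and 5 lower of 41, against 5.98% and 3.93%, among them Rgma, a neogenin ligand, at -3.10.

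No member passed the test between the libraries labelled Apcdd1+/- and WT. Over all kept cells, in progenitors, in neurons, in mesenchyme and in the difference between neurons and progenitors, edgeR called 0 members of 68, 66, 58, 56 and 63 tested, and 0% of all genes in each. At an unadjusted p under 0.05 there were 2, 2, 2, 1 and 2 members, where 1.18%, 1.48%, 1.99%, 1.48% and 4.73% of all genes were. They were Nrp1 and Nrp2 over all cells, Ephb3 and Efna3 in progenitors, Epha4 and Sema3c in neurons, Slit1 in mesenchyme, and Sema3c and Sema3e in the difference. DESeq2 called 0 members in each. Nrp1 over all cells was at 9.71 and 10.7 CPM in Apcdd1+/- and 12.98 and 14.5 in WT, a log2 difference of -0.38 (SE 0.14, edgeR adjusted p = 0.9996, not called). Sema3c in neurons was at 2.14 and 2.40 CPM against 4.63 and 9.88, a log2 difference of -1.59 (SE 0.53, edgeR adjusted p = 0.9998, not called). For abundant members the interval was narrower: Dcc differed by -0.03 (SE 0.16) in progenitors and by -0.06 (SE 0.18) in neurons, and Ephb2 by -0.05 (SE 0.12) and -0.01 (SE 0.17).

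**Figure D5:**
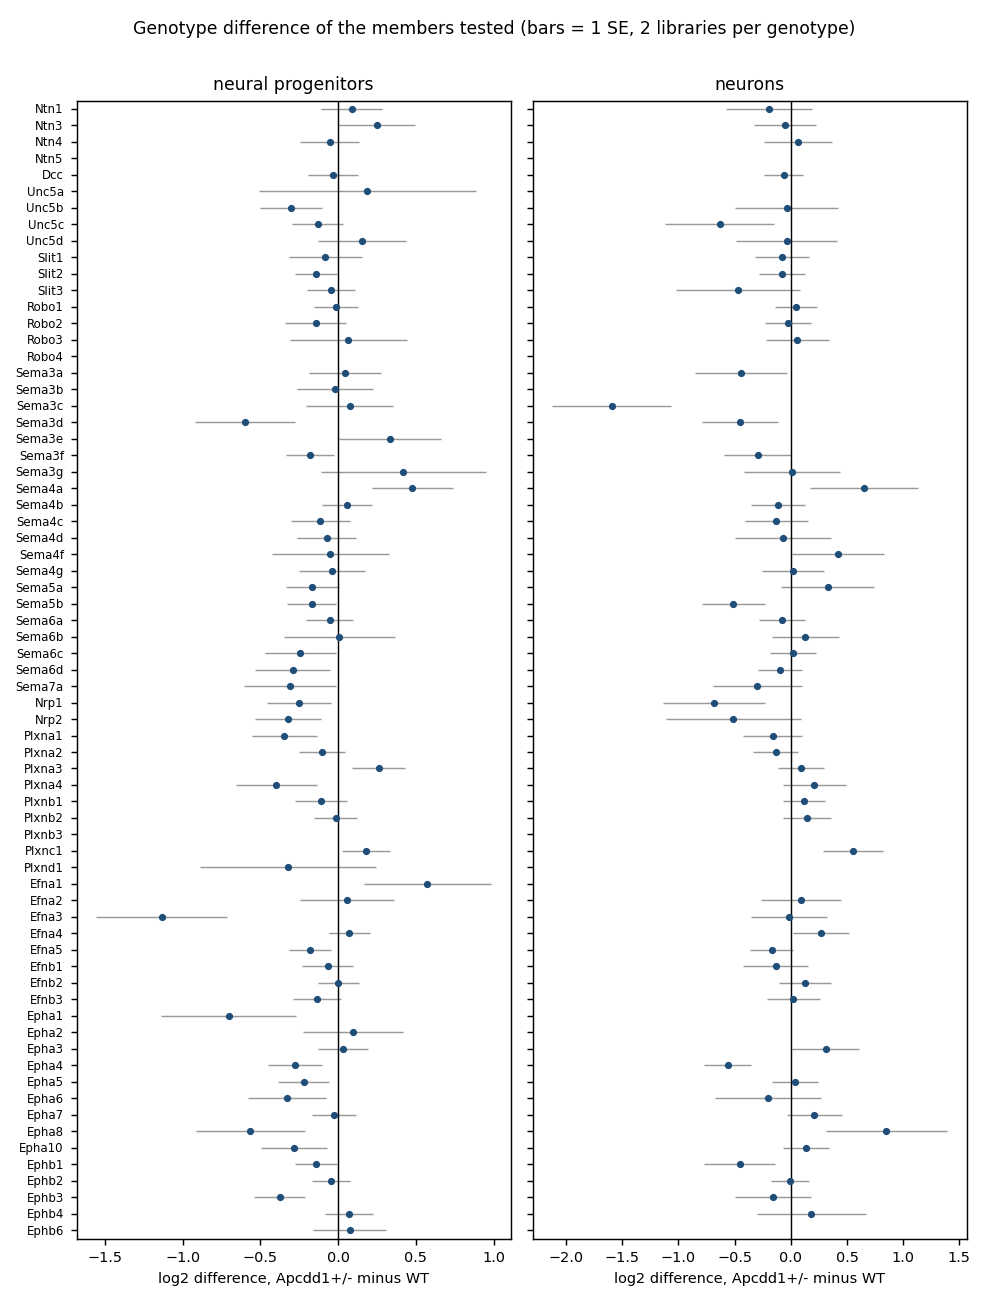
Log2 difference between libraries labelled Apcdd1+/- and WT in progenitors and in neurons, with bars of 1 SE, for the members tested in each. No point passes an adjusted p of 0.05, and Dcc and Ephb2 lie within 0.10 of 0 in both panels.

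Counting only which libraries were higher gave an uneven split over all cells and in progenitors, and a more even one in neurons and mesenchyme. Over all cells, both libraries labelled Apcdd1+/- lay above both WT libraries in 2 of 68 members and below them in 18, where 8.09% and 13.4% of all genes did. In progenitors the counts were 4 and 21 of 66, against 8.46% and 16.8% of all genes. The 21 included both neuropilins, Slit2, Unc5b, Unc5c, Ephb1, Ephb2, Efna5 and Sema6d. The median difference over all 66 members tested in progenitors was -0.06, against 0.01 for all genes. In neurons the counts were 5 and 6 of 58, against 11.5% and 15.7% of all genes, and in mesenchyme 4 and 7 of 56, against 10.2% and 11.4%. WT cells were sequenced more deeply, at medians of 11394 and 16051 UMIs per progenitor against 9452 and 9424, and the part of depth in this count was not tested.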

How the data were processed

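UMI counts per gene and cell were deposited by the authors as raw matrices. Overnight storage of the tissue, enzymatic dissociation, sorting of live cells, the DNBelab C droplet kit and the MGISEQ-2000 are given per the labels' protocols. PISA 0.12, Scanpy 1.9.1 and mm10 are named per the submitters' processing notes; the aligner and any use of strand are not given in the sources. Genes not listed in a library were taken as 0. The cell name list of Apcdd1+/- replicate 1 holds 3994 of 9735 names, but its matrix is complete.

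Cells with at least 500 genes and under 10% mitochondrial UMIs were kept. A cell entered a broad gate when it had the required number of that gate's markers and of no other; a progenitor could hold up to 3 neuron markers. No doublet caller was run. The values of some marker genes are not reported here. The numbers of markers required were set after the markers' own counts had been seen, never from member levels. The members and gene lists were chosen with earlier results of these data known.

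Sums per library and gate were tested on all genes with edgeR 4.0.16 (R 4.3.3; TMM, filterByExpr, quasi-likelihood test, Benjamini-Hochberg threshold of 0.05), with library as a block between gates and without one between genotypes, in 18 comparisons. Each SE was derived from the difference and its F statistic. A gate needed 20 cells in every library. For endothelium, crest glia and motor neurons a minimum of 10 was chosen after seeing cell numbers. In counts simulated with the fitted spread, 1.5-fold changes in genes of at least 10 CPM were recovered at 94% between neurons and progenitors. For the floor plate the share was 40%, and between genotypes in progenitors it was 22%. At 2-fold these shares were 100%, 80% and 94%. Named genes were a fixed list of 32 members, plus up to 8 members per comparison with the largest difference among those past the threshold with at least 10 CPM in the higher side. Of 48 pathway genes, up to 3 with the largest difference past the threshold were named. Alternatives were RLE scaling, DESeq2 1.42.0, no filter, all barcodes, 1 more marker per gate, each library left out and a replicate block.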

Additional observations from a re-analysis of the deposited data

How the results depend on the processing

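Of 245 values of named members, tried under 2359 alternatives in all, 2193 kept direction and side of the threshold, 158 kept direction and crossed it downwards, and 8 changed sign. The sign changes were Epha3 in epithelium (main -1.56; 0.20 without Apcdd1+/- replicate 1, 0.49 without WT replicate 2, 0.32 with all barcodes, 0.47 with 1 more marker per gate, 0.10 with a minimum of 10 cells; -2.13 to 0.49 over left-out libraries), Epha5 in epithelium (main -1.82; 0.037 without WT replicate 2 and down to -1.87 without another library) and Robo3 in sensory neurons (main -2.09; 1.30 without Apcdd1+/- replicate 1, 0.51 with a minimum of 10 cells; down to -3.20 without WT replicate 1). Some of these settings add gates to the reference, and the cause was otherwise not tested. Members called in the hypothalamus fell from 15 to 8 with 1 more marker per gate. With each library left out, the counts of called members ran from 9 to 14 in hypothalamus (main 15), 13 to 18 in midbrain (20), 9 to 15 in motor neurons (14), 13 to 20 in sensory neurons (22), 24 to 27 in endothelium, 35 to 39 in epithelium, 18 to 20 in floor plate, 13 to 17 in hindbrain, 44 to 48 in mesenchyme, 15 to 17 in crest glia, 46 to 48 in neurons, 17 to 18 in roof plate and 23 to 27 in telencephalon. The lowest counts came without WT replicate 2 in hypothalamus and sensory neurons (14 without Apcdd1+/- replicate 2), without Apcdd1+/- replicate 1 in midbrain and without Apcdd1+/- replicate 2 in motor neurons. Between genotypes the members called ran from 0 to 1 over all cells, 0 to 2 in neurons and 0 to 2 in the difference, the highest each time without Apcdd1+/- replicate 2, and stayed at 0 in progenitors and mesenchyme.

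Over all genes, 1 more marker per gate moved the called genes from 2220 to 861 in floor plate, 1104 to 705 in roof plate, 2577 to 1238 in telencephalon and 1297 to 454 in hypothalamus. Leaving out a library moved roof plate to 721 (WT replicate 1), midbrain from 857 to 552 (Apcdd1+/- replicate 1) or 543 (WT replicate 2), motor neurons from 344 to 192 (WT replicate 1) or 193 (Apcdd1+/- replicate 2), and sensory neurons from 902 to 1369 (Apcdd1+/- replicate 1), or between 428 and 533 (each other library). Motor neurons join the reference of the sensory comparison without Apcdd1+/- replicate 1. DESeq2 gave 592 in sensory neurons, and no filter gave 595 in motor neurons. Genotype calls, 0 in each main fit, rose without a filter to 3 over all cells, 10 in progenitors, 2 in neurons, 11 in mesenchyme and 26 in the difference, and to 3 over all cells with DESeq2. Without 1 library they reached 222 over all cells (109 without Apcdd1+/- replicate 1), 82 in progenitors and 25 in neurons, each without Apcdd1+/- replicate 2, 9 in mesenchyme, and 83 in the difference without WT replicate 1. At an unadjusted p under 0.05 they were 188, 212, 232, 187 and 662. The replicate block called 0 members over all cells, in progenitors, in neurons and in mesenchyme, and 5 genes over all cells; it was not run for the difference. Samples of equal number share only a number: their deviations correlated at 0.180 over all cells, 0.0485 in progenitors, 0.0688 in neurons and 0.135 in mesenchyme. One more marker per gate could not be fitted for hindbrain and motor neurons, which held too few cells.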

Other observations

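Retina and isthmus progenitors and macrophages, which entered no test of their own, held further high members, listed in the same order of libraries. Retina progenitors, counted in 39, 13, 36 and 25 cells, had the transmembrane semaphorin Sema5a at 31.0, 50.4, 34.2 and 63.04 CPM, the highest mean of the 9 regions, with the isthmus next at 10.1, 33.6, 13.9 and 22.9, which overlaps. Isthmus progenitors had Efnb3 at 78.4, 76.7, 80.7 and 71.4 CPM, between floor plate and midbrain in the order of means, and overlapped the floor plate.

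Macrophages, counted in 41, 71, 23 and 19 cells, had Sema4d, a class 4 semaphorin, at 11.9, 33.1, 35.3 and 27.5 CPM, the highest mean of the broad gates, though Apcdd1+/- replicate 1 lay within the range of epithelium. Plxnb2, a receptor for class 4 semaphorins, ranged from 35.4 to 117 CPM in macrophages, a spread that covered epithelium and mesenchyme. These levels are descriptions with no test.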
